A study of Homo sapiens with 7 samples.

Results

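The comparison described here set LPA + Albumin against Albumin, the pair of media in which lysophosphatidic acid was given to human embryonic stem cells that had albumin in their medium on both sides. It was chosen by the treatment labels and holds 2 of the 7 arrays of the study, 1 for each medium. All arrays carry RNA of H1, an established line of human embryonic stem cells, which was kept on matrigel in E8, a defined medium, and passaged with the ROCK inhibitor Y27632 (5 μM, taken away after 24 h). The LPA + Albumin cells received E8 with 1 μM LPA of the 18:1 species and 1% albumin, and the Albumin cells E8 with 1% albumin alone, both for 2 days. The other arrays, used below only to place the 2 values of a gene, were LPA (1 μM, without albumin), E8, AlbuMAX (a lipid-rich albumin, 1.6%), CDL (a chemically defined lipid concentrate, 1%) and hCDL (0.1x), a homemade lipid mixture. With 1 array a side there is no replicate and no test, so every difference is given by its size, and whether it came from LPA or from the culture dish cannot be told apart by this pair alone.

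LPA is a phospholipid with only one fatty acid chain that acts outside the cell, through a family of G protein-coupled receptors. Receptors that couple to G12 and G13 signal to the cytoskeleton and build actin filaments. Less free actin lets the coactivators MRTF-A and MRTF-B enter the nucleus and work with SRF, a factor that binds the CArG box, and the same signal lets YAP and TAZ work with TEAD factors. Albumin carries LPA and fatty acids in blood. In human pluripotent cells actomyosin contraction is known to limit survival after the colonies are split, which is why a ROCK inhibitor is added at passage.

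The values are log2 normalized intensities, called levels below, and a difference of 1 is a 2-fold difference. Levels of different genes come from different probes and are not set against each other. A gene entered the comparison when its probe was above background (detection p-value below 0.01) on the higher of the 2 arrays, which left 7488 named genes. Where the dimmer array was not above background, the fold is a lower bound, computed against the higher of the gene's own signal and the lowest signal above background on that array, and written as at least N-fold. Such a bound holds for the normalization used here, and other background handling gave smaller differences for some genes. Counts past 1.5-fold or 2-fold use the difference of the 2 levels itself, also where this bound is smaller. Above background were 12046 of 33866 probes (35.6%) in LPA + Albumin and 12594 (37.2%) in Albumin, and raw median intensities were 113.6 and 113.4. The pluripotency markers POU5F1, NANOG, LIN28A, L1TD1 and SALL4 were above background on all 7 arrays. The arrays hold whole cultures, so fewer cells of a type and less RNA per cell cannot be told apart in any value below.

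LPA + Albumin differed from Albumin mostly upwards among the genes with large differences, and the higher side included contractile actins, annexins and caveolins, matrix and adhesion genes, secreted binding proteins and p53 targets. At least 2-fold higher in LPA + Albumin were 290 of 7488 genes (3.87%), and at least 2-fold lower 78 (1.04%). At 1.5-fold the counts were 754 higher (10.1%) and 555 lower (7.41%). The median difference over all genes was -0.04. The share of higher genes among those past 2-fold was 78.8%, and 92.3% on the submitters' own normalized values, while at 1.5-fold it was 57.6% and 74.2%. The 2496 genes of lowest mean signal held 126 of the higher and 50 of the lower genes past 2-fold, and the 2496 of highest mean signal 46 and 6.

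Other pairs of arrays, none of which shares an array with this one, give a scale for these counts. The pair of lipid mixtures, CDL minus hCDL (0.1x), had 65 of 7352 genes past 2-fold in either direction (0.884%), against 368 (4.91%) in LPA + Albumin minus Albumin. LPA minus E8, the pair without albumin, had 150 genes at least 2-fold higher (2.08% of 7197) and 45 lower (0.625%), with 494 higher (6.86%) and 318 lower (4.42%) at 1.5-fold. A further scale is the range of the 4 media that held neither LPA nor AlbuMAX, namely E8, Albumin, CDL and hCDL (0.1x). Of the 290 higher genes, 289 lay above all 4 of these arrays, 267 (92.1%) lay at least 1.5-fold above the highest of them, against 5.94% of all genes, and 211 (72.8%) at least 2-fold, against 2.82%. Above all 4 arrays, by any amount, lay 29.5% of all genes, and below all 4 lay 35.5%. Of the 78 lower genes, 76 lay below all 4, 62 (79.5%) at least 1.5-fold below the lowest, against 2.39% of all genes, and 23 (29.5%) at least 2-fold, against 0.307%. Since Albumin is 1 of the 4, part of these counts follows from the choice of the genes.

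Many of the differences had only 1 array above background. In Albumin, 89 of the 290 higher genes (30.7%) were not above background, and 53 of them kept a bound of at least 2-fold. In LPA + Albumin, 34 of the 78 lower genes (43.6%) were not above background, and 9 kept such a bound. Among the 290 higher genes, 77 had further probes above background, and 86 of these 89 probes were higher as well, 81 of them by at least 1.5-fold. Among the 78 lower genes, 16 had further probes above background, and 16 of these 18 probes were lower as well, 10 of them by at least 1.5-fold. Over all genes, 928 of 2218 further probes were higher, 224 of them by at least 1.5-fold, and 188 were at least 1.5-fold lower. The genes nearest the 2-fold line were NSUN5P2, just inside at 1.001, and LHX8, just outside at 0.998, and on the lower side TRAM1L1 at -1.001 and FAM184A at -0.999.

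**Figure D1:**
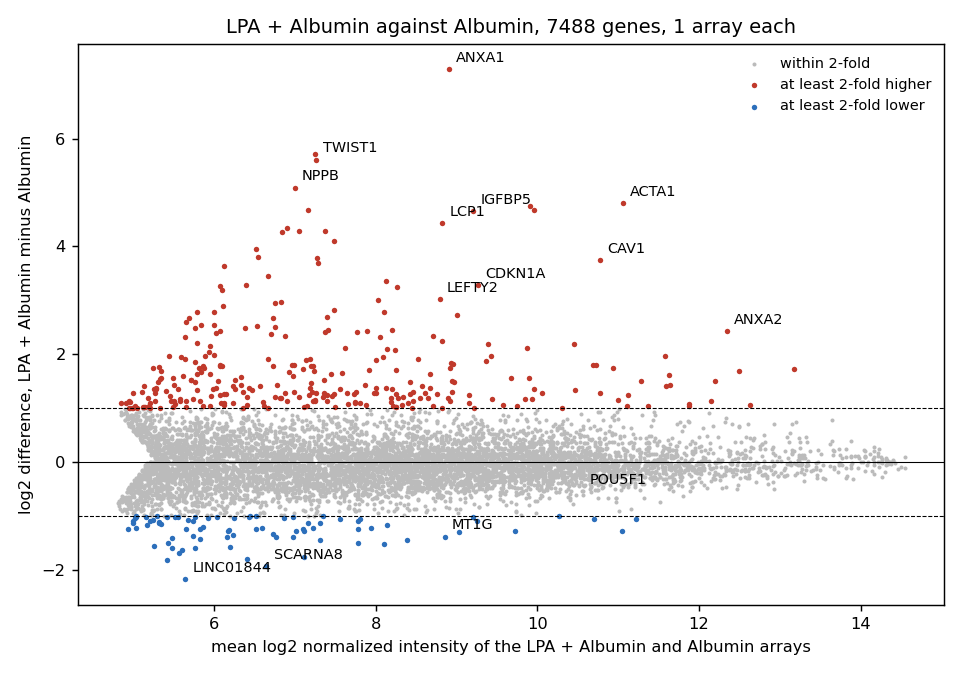
Difference of each of the 7488 genes, LPA + Albumin minus Albumin (vertical axis, log2), against its mean level on the 2 arrays (horizontal axis, log2 normalized intensity). Each point is a gene, the dashed lines mark 2-fold, and the red points (290 genes) reach 7.28 while the blue points (78 genes) reach -2.17.

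The plot of difference against mean level shows the asymmetry: the highest gene stood at 7.28 and the lowest at -2.17. The 25 highest genes had differences of 3.29 to 7.28 with a median of 4.28, and each of them lay above the 4 media without LPA or AlbuMAX, by 2.51 to 6.42. The 25 lowest had differences of -2.17 to -1.33 with a median of -1.49, and each lay below those media, with gaps of -1.65 to -0.56.

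The LPA receptors themselves were close to each other in the 2 media. LPAR1 had levels of 6.79 in LPA + Albumin and 6.86 in Albumin. LPAR2 had 8.11 and 7.93, and LPAR3 6.72 and 7.20. LPAR4 was the 1 measured receptor past 1.5-fold, at 7.24 in LPA + Albumin and 8.08 in Albumin, and its other levels were 7.84 in LPA, 7.91 in E8, 7.35 in AlbuMAX, 7.87 in CDL and 7.85 in hCDL (0.1x). LPAR4 was thus lower in LPA + Albumin and AlbuMAX than on the other arrays, while LPA without albumin differed from E8 by -0.07. LPAR6 was not above background on either array of the pair, and LPAR5 is not analysed here.

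None of the 11 measured genes of LPA metabolism passed 1.5-fold, and their median was -0.05. The list holds the enzymes that make, esterify and remove LPA. PLPP3, a membrane phosphatase that removes the phosphate of LPA outside the cell, had 9.92 in LPA + Albumin and 10.06 in Albumin. GPAM, a mitochondrial enzyme that makes LPA from glycerol phosphate, had 8.59 and 9.08. GNA12, the alpha subunit of G12, was 1.61-fold higher, at 8.62 in LPA + Albumin and 7.94 in Albumin, but its second probe went the other way, at 5.35 and 5.75. GNA13, its closest relative, had 9.74 and 10.02.

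The actin and contractile genes known as targets of SRF were higher in LPA + Albumin. Of 23 measured members, 17 were at least 1.5-fold higher, 14 at least 2-fold and 0 lower by 1.5-fold, with a median of 1.12 against -0.04 for all genes. ACTA1, the actin of skeletal muscle fibres, had a level of 13.46 in LPA + Albumin and 8.65 in Albumin, a 28.0-fold difference. Its other levels were 12.37 in LPA, 8.66 in E8, 12.96 in AlbuMAX, 8.21 in CDL and 8.22 in hCDL (0.1x). The 3 media that held LPA or AlbuMAX therefore stood at least 3.71 above the other 4. In deposited intensity, before any correction, ACTA1 read 11100 in LPA + Albumin and 511 in Albumin.

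In the other muscle actins, too, the 3 media with LPA or AlbuMAX lay above the other 4. ACTC1, the cardiac actin, had 12.29 in LPA + Albumin and 7.53 in Albumin, and ACTG2, the enteric smooth muscle actin, 12.30 and 7.61. ACTA2, the vascular smooth muscle actin, had 9.13 and 5.44, a difference of 3.70. The 4 genes code for nearly identical coding sequences, so a probe of one may also catch RNA of another. The actins of every cell were within 1.5-fold: ACTB had 14.32 in LPA + Albumin and 14.02 in Albumin, and ACTG1 14.36 and 14.39 (both named after their values were seen).

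Proteins that load onto actin filaments were higher too. CNN1, calponin of smooth muscle, had 8.90 in LPA + Albumin and 6.08 in Albumin. MYL9, a regulatory light chain of non-muscle and smooth muscle myosin, had 9.49 and 6.71. CALD1, caldesmon, had 13.35 and 11.65. These 3 genes differed by 7.08-fold, 6.86-fold and 3.25-fold, in that order. The tropomyosins TPM1 and TPM2, which coat the filament, were 2.18-fold and 2.38-fold higher, the non-muscle myosin heavy chain MYH9 2.08-fold and the cross-linker ACTN1 2.12-fold. For TPM1 the 4 probes above background gave differences of 0.81 to 1.33, and for CALD1 the 3 probes 1.70 to 2.35. LCP1, an actin bundling protein best known from white blood cells, was outside the list and 21.5-fold higher, at 11.04 in LPA + Albumin and 6.61 in Albumin.

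Promoter windows of the muscle actins are shown because, within the window, they hold or lack the CArG box that SRF binds. They are RefSeq sequences on GRCh38.p14, each 300 bases long, from 250 bases before to 50 after the start of the gene, read 5′ to 3′ on the gene's strand. ACTA1 lies at chr1:229434045-229434344 (minus strand), ACTC1 at chr15:34795500-34795799 (minus), ACTG2 at chr2:73892758-73893057 (plus) and ACTA2 at chr10:88991288-88991587 (minus). The capitals of the first 3 mark the CArG box, and in ACTA1 also GGAATG, the TEAD motif, on either strand. No stretch of ACTA2 is in capitals because neither exact pattern was found in this window. Sites outside the window, and boxes with another base inside, were not searched. The window therefore does not show that ACTA2 lacks a CArG box.
ACTA1: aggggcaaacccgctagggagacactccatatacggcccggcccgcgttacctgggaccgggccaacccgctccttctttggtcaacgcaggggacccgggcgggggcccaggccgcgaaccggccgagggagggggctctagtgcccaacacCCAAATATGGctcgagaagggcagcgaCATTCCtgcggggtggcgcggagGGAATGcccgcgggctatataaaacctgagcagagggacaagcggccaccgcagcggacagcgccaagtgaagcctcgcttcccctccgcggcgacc
ACTC1: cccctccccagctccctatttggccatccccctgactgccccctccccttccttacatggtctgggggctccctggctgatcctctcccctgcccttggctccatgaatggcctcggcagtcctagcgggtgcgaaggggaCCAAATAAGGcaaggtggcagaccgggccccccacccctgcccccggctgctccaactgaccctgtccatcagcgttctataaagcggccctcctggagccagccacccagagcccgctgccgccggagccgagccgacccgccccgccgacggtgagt
ACTG2: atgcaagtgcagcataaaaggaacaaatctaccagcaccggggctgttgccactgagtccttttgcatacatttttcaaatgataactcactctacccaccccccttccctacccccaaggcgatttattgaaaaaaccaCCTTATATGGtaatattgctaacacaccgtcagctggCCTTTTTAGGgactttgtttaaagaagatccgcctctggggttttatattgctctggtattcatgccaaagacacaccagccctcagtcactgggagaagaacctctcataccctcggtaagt
ACTA2: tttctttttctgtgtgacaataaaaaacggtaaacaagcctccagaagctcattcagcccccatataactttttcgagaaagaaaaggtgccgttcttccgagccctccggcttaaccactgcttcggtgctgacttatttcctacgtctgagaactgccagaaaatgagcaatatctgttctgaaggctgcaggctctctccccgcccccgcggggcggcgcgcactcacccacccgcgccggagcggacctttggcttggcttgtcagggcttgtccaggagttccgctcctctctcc

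A CArG box began at -97 in ACTA1, at -109 in ACTC1, and at -110 and -73 in ACTG2, counted from the start of the gene. A CArG box, a stretch of A and T between CC and GG, was searched on both strands. It was found in 9 of the 21 measured SRF targets that had a promoter sequence (42.9%), against 80 of 6031 genes of the comparison (1.33%) and 351 of all 27305 promoters (1.29%). The list was compiled from known SRF targets, so this share describes the list. Among the genes at least 2-fold higher, 9 of 221 promoters held one (4.07%), and among those at least 2-fold lower 1 of 58 (1.72%). Of the 9 higher genes, 4 were in the SRF list, and the others, named after their values were seen, were CAPN2, GARIN1B, ISG15, MYL7 and NMRK2. Within the SRF list, 7 of the 9 genes with a box in this window and 9 of the 12 without one were at least 1.5-fold higher. The box in the window therefore did not separate the higher members from the rest.

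Known targets of YAP and TEAD were higher as well: of 10 measured members 8 were at least 1.5-fold higher, 6 at least 2-fold and 0 lower by 1.5-fold, with a median of 1.49. ANKRD1, a nuclear and sarcomeric ankyrin repeat protein widely used as a reporter of YAP, had 7.71 in LPA + Albumin and 4.44 in Albumin, where it was not above background, which gives at least 5.79-fold. Its other levels were 6.13 in LPA, 4.84 in E8, 6.91 in AlbuMAX, 4.54 in CDL and 4.48 in hCDL (0.1x). ANKRD1 was above background only on the 3 arrays of media with LPA or AlbuMAX. MYOF, a membrane repair protein of the ferlin family, was at least 14.9-fold higher, at 9.07 in LPA + Albumin and 4.73 in Albumin.

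AXL, a receptor tyrosine kinase, was 4.23-fold higher, FJX1, a secreted protein of the four-jointed family, 3.56-fold, and F3, tissue factor, 3.43-fold. GADD45B, AMOTL2 and LATS2 differed by 1.21, 0.83 and 0.61 in LPA + Albumin minus Albumin, and by -0.02, -0.13 and -0.15 in LPA minus E8. Above the highest of the 4 media without LPA or AlbuMAX they lay by 1.08, 0.15 and 0.33. For AMOTL2 that was CDL, at 6.47 against 6.61 in LPA + Albumin, while Albumin was the lowest of the 4 at 5.78. AMOTL2 and LATS2 are feedback inhibitors of YAP. The promoter of ANKRD1 (chr10:90921038-90921337, minus strand, same source and window) is shown because it holds the TEAD motif at 2 places, in capitals, at -220 and -128. The windows of MYOF, AXL and FJX1, searched in the same way and not shown, held no TEAD motif.
ANKRD1: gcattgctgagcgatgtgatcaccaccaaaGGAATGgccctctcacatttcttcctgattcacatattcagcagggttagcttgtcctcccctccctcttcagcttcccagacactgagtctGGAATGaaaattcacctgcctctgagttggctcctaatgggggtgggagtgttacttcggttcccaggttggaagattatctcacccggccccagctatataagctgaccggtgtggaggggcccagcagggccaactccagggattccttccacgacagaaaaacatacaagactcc

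GGAATG, searched on both strands, was in 3 of the 10 YAP and TEAD promoters (30.0%), in 13.6% of the genes at least 2-fold higher, in 6.90% of those at least 2-fold lower, in 9.92% of the genes of the comparison and in 14.0% of all promoters. TEAD factors often bind distal enhancers, which these windows do not hold. TGANTCA, the AP-1 motif, was in 6.79% of the genes at least 2-fold higher and in 4.31% of the comparison.

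Immediate early and AP-1 genes, which respond to growth factors within an hour and often return, were partly higher after 2 days. Of 15 measured members, 8 were at least 1.5-fold higher, 5 at least 2-fold and 0 lower by 1.5-fold; their median was 0.70, or 0.48 with genes at their bound. JUN, a subunit of AP-1, had 9.11 in LPA + Albumin and 6.68 in Albumin, with 8.03 in LPA, 6.50 in E8, 8.57 in AlbuMAX, 6.39 in CDL and 6.51 in hCDL (0.1x). FOSL1, a Fos family partner of JUN, was at least 2.68-fold higher. KLF6 and ATF3, zinc finger and leucine zipper factors of the same early class, were 2.81-fold and 2.61-fold higher. Among 4 measured ERK feedback genes, PHLDA1 was 4.31-fold higher, and ETV5 and CCND1 1.51-fold and 1.58-fold, while ETV4, a target of FGF signalling, was at 8.96 in LPA + Albumin and 9.27 in Albumin.

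The largest difference of the comparison was in ANXA1, annexin A1, a calcium-dependent membrane-binding protein. Its level was 12.55 in LPA + Albumin and 5.27 in Albumin, a 156-fold difference. The other arrays gave 11.67 in LPA, 6.13 in E8, 12.28 in AlbuMAX, 5.13 in CDL and 4.66 in hCDL (0.1x), where the last 2 were not above background. In deposited intensity ANXA1 read 6200 in LPA + Albumin and 128 in Albumin.

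ANXA1 belonged to a list of annexins, S100 proteins, galectins and caveolae genes, of which 19 of 20 measured members were at least 1.5-fold higher, 15 at least 2-fold and 0 lower by 1.5-fold, with a median of 1.64. CAV1, the coat protein of caveolae, had 12.65 in LPA + Albumin and 8.91 in Albumin, a 13.4-fold difference, and its second probe differed by 3.16. CAV2, its partner, was at least 16.3-fold higher, at 9.20 in LPA + Albumin and 4.91 in Albumin. ANXA2, which binds membranes and actin as a complex with S100A10, had 13.56 and 11.13, and its 3 probes differed by 1.76, 2.36 and 2.43. S100A10 itself had 14.04 in LPA + Albumin and 12.31 in Albumin.

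AHNAK, a giant scaffold that joins the ANXA2 complex, was 4.75-fold higher. ANXA3 and the galectin LGALS1 were 4.56-fold and 5.05-fold higher, and S100A6 and S100A11 4.32-fold and 2.96-fold. The 1 member not past 1.5-fold, S100A13, was lower, at 9.07 in LPA + Albumin and 9.52 in Albumin (named after its value was seen). In LPA minus E8 the list's median was 1.03.

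Most of the adhesion genes were higher. Of 16 measured integrin and focal adhesion genes, 10 were at least 1.5-fold higher, 8 at least 2-fold and 0 lower by 1.5-fold, with a median of 0.90. CD44, the hyaluronan receptor, had 9.54 in LPA + Albumin and 5.44 in Albumin, a 17.2-fold difference, but its second probe gave 5.77 and 5.02, a difference of 0.75. The 2 probes therefore disagreed in size and not in sign. ITGA3, ITGA5, ITGA2 and ITGAV, integrin alpha chains for laminin, fibronectin, collagen and vitronectin, were 3.72-fold, 2.34-fold, 2.21-fold and 2.07-fold higher. PARVA, LIMS1 and ILK, which together form the complex that ties integrins to actin, were 2.49-fold, 2.22-fold and 1.72-fold higher, and TLN1, talin, 2.02-fold.

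In the extracellular matrix list, 10 of 16 measured members were at least 1.5-fold higher, 7 at least 2-fold and 0 lower by 1.5-fold, with a median of 0.84. COL8A1, a short-chain collagen, was at least 14.0-fold higher, at 8.98 in LPA + Albumin and 4.71 in Albumin, and its 3 probes differed by 1.40, 3.64 and 4.27. COL7A1, the anchoring fibril collagen and not in the list, was at least 9.32-fold higher. LOX, which cross-links collagen, was at least 3.61-fold higher, LAMA5, a chain of a laminin that embryonic stem cells adhere to, 2.06-fold, and TNC, tenascin C, 2.45-fold. A second TNC probe gave a larger difference, at 9.24 in LPA + Albumin and 5.51 in Albumin. GJB2, a gap junction protein, was at least 7.32-fold higher and PRSS23, a secreted serine protease, 10.2-fold.

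Secreted factors moved in both directions: 12 of 23 measured members were at least 1.5-fold higher and 3 lower, with 7 and 1 past 2-fold and a median of 0.62. NPPB, the natriuretic peptide B precursor, was not above background in Albumin and was at least 20.7-fold higher, at 9.55 in LPA + Albumin and 4.45 in Albumin. IGFBP5, which binds insulin-like growth factors, had 11.53 and 6.89, a difference of 4.65, with 9.61 in LPA, 7.06 in E8, 10.70 in AlbuMAX, 6.69 in CDL and 6.95 in hCDL (0.1x). IGFBP7, of the same family, was 19.4-fold higher, at 9.51 in LPA + Albumin and 5.24 in Albumin. GREM1, a secreted inhibitor of BMPs, was at least 9.97-fold higher, at 8.49 and 4.55.

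The growth factors PDGFB and HBEGF were 5.21-fold and 3.46-fold higher. FGF2, the growth factor that E8 itself supplies, was 1.62-fold higher, at 10.77 in LPA + Albumin and 10.07 in Albumin. On the lower side, FGF8, a patterning factor of the gastrula and the mid-hindbrain, was not above background in LPA + Albumin and at least 2.19-fold lower, at 4.79 in LPA + Albumin and 6.42 in Albumin. FGF19 and IGFBP4 were 1.86-fold and 1.77-fold lower. Of 8 measured inflammatory genes 3 were at least 1.5-fold higher, IL6 by at least 1.92-fold, IL1A by 2.42-fold and NFKB1 by 1.69-fold, while CXCL8 and CCL2 were within 1.5-fold.

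**Figure D2:**
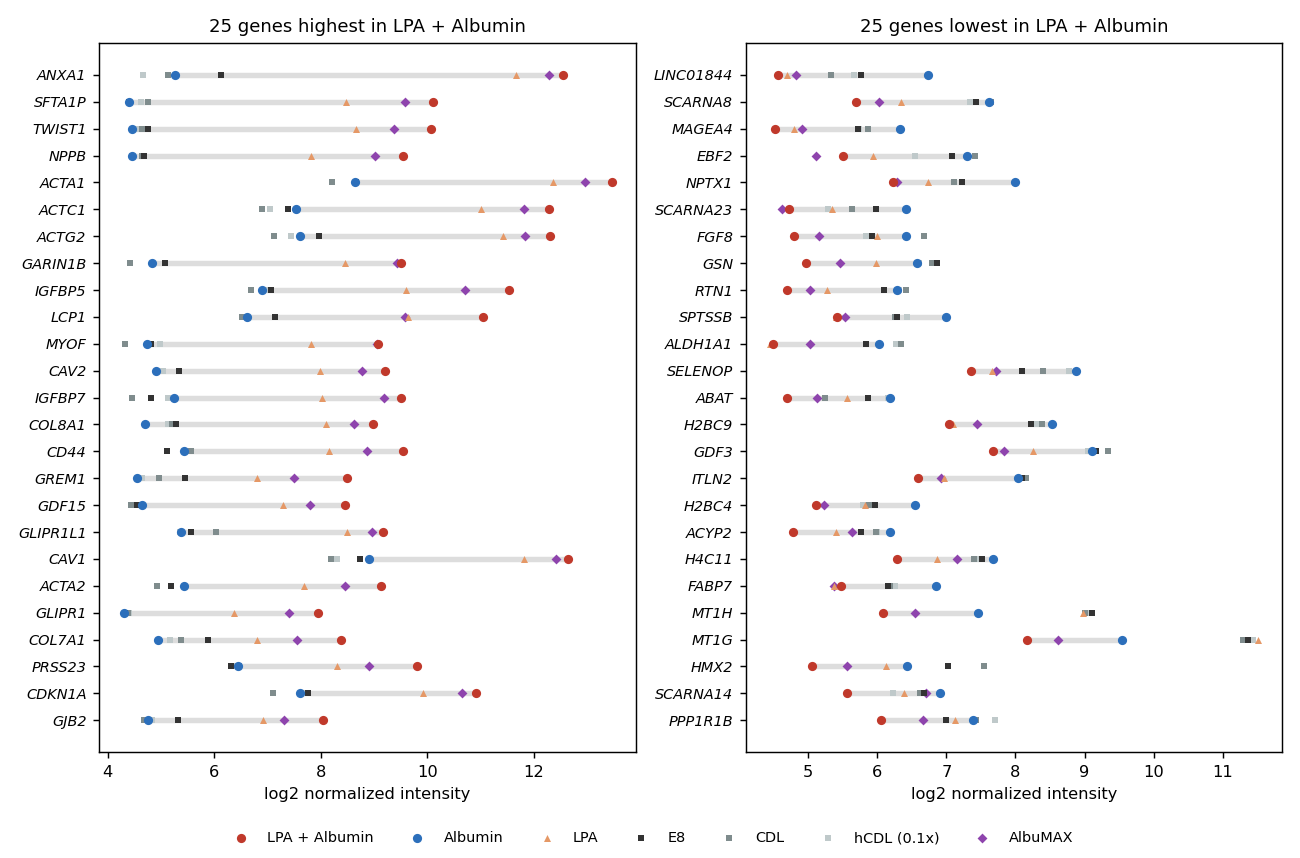
Levels (log2 normalized intensity) of the 25 highest and the 25 lowest genes of LPA + Albumin minus Albumin on all 7 arrays. Each symbol is 1 array and the grey bar joins LPA + Albumin (red) and Albumin (blue); for ANXA1 they stand at 12.55 and 5.27, and LPA (orange) and AlbuMAX (purple) lie at 11.67 and 12.28.

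The plot of the 25 highest and 25 lowest genes on all arrays shows LPA and AlbuMAX on the side of LPA + Albumin for every one of the 25 highest genes, with E8, CDL and hCDL (0.1x) beside Albumin. Among the 25 lowest genes the media were less separate, and MT1G, MT1H, FGF8 and PPP1R1B are examples in which LPA lay with E8.

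Genes of the Nodal and TGF-beta pathway, which keeps human embryonic stem cells undifferentiated and also drives mesendoderm, did not all go one way. Of 8 measured members 5 were at least 1.5-fold higher and 1 lower. LEFTY2, a feedback inhibitor of Nodal, had 10.31 in LPA + Albumin and 7.28 in Albumin, an 8.18-fold difference, with 9.41 in LPA, 7.53 in E8, 11.32 in AlbuMAX, 7.36 in CDL and 6.88 in hCDL (0.1x). CER1, a second secreted Nodal inhibitor, was at least 3.83-fold higher and LEFTY1 2.24-fold. BAMBI and PMEPA1, which dampen TGF-beta receptor signalling, were 1.99-fold and 1.90-fold higher. The inhibitors were thus the higher members, whereas NODAL was at 8.70 in LPA + Albumin and 8.75 in Albumin (named after its value was seen).

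GDF3, a Nodal-related ligand of pluripotent cells, was the lower member, at 7.67 in LPA + Albumin and 9.11 in Albumin, a 2.72-fold difference. Its other levels were 8.25 in LPA, 9.16 in E8, 7.84 in AlbuMAX, 9.34 in CDL and 9.05 in hCDL (0.1x), so that the 3 media with LPA or AlbuMAX were all below the other 4. WNT and BMP targets had a median of -0.08 with 1 of 7 higher and 1 lower by 1.5-fold: ID4 was at least 1.41-fold higher and ID2 1.71-fold lower.

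TWIST1, a basic helix-loop-helix factor of mesenchyme and neural crest, was at least 29.7-fold higher, at 10.07 in LPA + Albumin and 4.46 in Albumin. It had 8.66 in LPA, 4.76 in E8, 9.37 in AlbuMAX, 4.65 in CDL and 4.57 in hCDL (0.1x), and was above background only on the 3 arrays with LPA or AlbuMAX. The rest of the mesenchymal and neural crest list was mixed, with 3 of 8 measured members at least 1.5-fold higher and a median of 0.13. CDH2, N-cadherin, was 3.07-fold higher and PDGFRB 2.60-fold, while CDH11, PDGFRA, FOXC2 and THY1 were within 1.5-fold. In the epithelial list 1 of 13 measured genes was past 1.5-fold in each direction. JUP, plakoglobin, was 1.61-fold higher. CLDN4 had 4.73 in LPA + Albumin and 5.46 in Albumin, the only array where it was above background. Its bound was at least 1.12-fold lower. The second probe of JUP went the other way, at 5.07 in LPA + Albumin and 5.26 in Albumin.

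Markers of other fates showed no common direction. Of 6 measured neuroectoderm genes 3 were at least 1.5-fold higher and 2 lower: NES, the intermediate filament nestin, was 3.51-fold higher, at 11.59 in LPA + Albumin and 9.78 in Albumin, MAP2 was 2.19-fold higher, HESX1, a forebrain homeobox gene, 2.41-fold lower, and RTN1 at least 1.98-fold lower. MAP2 lay 0.34 above the highest of the 4 media without LPA or AlbuMAX, and its other probes differed by 0.46 and 0.72. The second probe of RTN1, not above background, differed by -0.06. OTX2, a homeobox factor of primed pluripotency and forebrain, had 8.15 in LPA + Albumin and 8.14 in Albumin. Only 3 mesendoderm and endoderm factors were measured, and FOXA2 was at least 1.28-fold lower, HHEX 1.59-fold lower and FOXH1 1.52-fold higher. FOXA2 was above background on no array but Albumin. HHEX, at 6.73 in LPA + Albumin, had 6.87 in E8 and 6.53 in LPA. FOXH1 lay 0.25 above the highest of the 4 media without LPA or AlbuMAX.

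The core pluripotency genes were close to each other in the 2 media: 10 of 11 measured members were within 1.5-fold and the median was -0.03. POU5F1, which codes for OCT4, had 10.29 in LPA + Albumin and 10.83 in Albumin, with 10.82 in LPA, 10.61 in E8, 10.37 in AlbuMAX, 11.02 in CDL and 10.79 in hCDL (0.1x). POU5F1 was the lowest of the 7 arrays in LPA + Albumin, by 1.46-fold from Albumin. NANOG had 9.98 in LPA + Albumin and 10.31 in Albumin, and its second probe 9.91 and 10.26. PODXL, a surface sialomucin, was the 1 member past 1.5-fold, 1.69-fold higher. Of 3 measured naive pluripotency genes, KLF5 was at least 2.38-fold higher and NLRP7 3.31-fold higher, and KLF4 was within 1.5-fold. SOX2 is not analysed here.

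Targets of p53 were higher in LPA + Albumin: 13 of 19 measured members were at least 1.5-fold higher, 10 at least 2-fold and 0 lower by 1.5-fold, with a median of 1.00. Of the 19, 18 lay above the 4 media without LPA or AlbuMAX, against 29.5% of all genes. CDKN1A, the cyclin-dependent kinase inhibitor p21, had 10.92 in LPA + Albumin and 7.62 in Albumin, a 9.81-fold difference. Its other levels were 9.92 in LPA, 7.77 in E8, 10.66 in AlbuMAX, 7.10 in CDL and 7.67 in hCDL (0.1x). GDF15, a secreted stress factor, was at least 9.68-fold higher, at 8.45 in LPA + Albumin and 4.65 in Albumin.

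PLK2, a polo-like kinase, was 7.77-fold higher, and ZMAT3, GADD45A and PHLDA3 were 3.86-fold, 3.80-fold and 3.79-fold higher. BAX and TNFRSF10B, which promote cell death, were each 2.01-fold higher, and BBC3, which codes for PUMA, 1.63-fold. Above CDL, the highest of the 4 media without LPA or AlbuMAX for these genes, BAX lay by 0.56 and BBC3 by 0.13. In LPA minus E8, BAX differed by 0.99 and BBC3 by 0.15. CDKN1A is also known to respond to other signals, TGF-beta among them. Whether p53 activity differed was not tested. CDKN2B, the inhibitor p15 that TGF-beta induces, was at least 4.62-fold higher, and CDKN1B, p27, was 1.67-fold lower, at 8.73 in LPA + Albumin and 9.47 in Albumin, while its second probe had 8.14 and 8.28.

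Genes of the dividing cell differed little. Of 23 measured G2 and mitosis genes 21 were within 1.5-fold, with a median of -0.21, and 15 of the 23 lay below all 4 media without LPA or AlbuMAX, against 35.5% of all genes. TOP2A, the topoisomerase of mitotic chromosomes, had 11.49 in LPA + Albumin and 12.12 in Albumin, and CENPE, a kinetochore motor, 9.47 and 10.06, which were the members past 1.5-fold. All 14 measured replication genes were within 1.5-fold. Of 11 measured histone genes 2 were at least 2-fold lower: H2BC9 was 2.82-fold lower, at 7.04 in LPA + Albumin and 8.53 in Albumin, and H2BC4 at least 2.38-fold. H2BC12 was 1.82-fold higher, but its second probe had 5.47 in LPA + Albumin and 5.64 in Albumin. H4C11, outside the list, was 2.63-fold lower. Histone genes are near-identical copies, so their probes may catch more than 1 gene.

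Lipid genes were level. Of 17 measured genes of cholesterol synthesis and uptake, 11 of fatty acid synthesis and 10 of lipid droplets and fatty acid oxidation, 0 passed 1.5-fold, with medians of -0.14, 0.03 and 0.04. INSIG1, the sterol-sensing retention factor, had 10.24 in LPA + Albumin and 10.65 in Albumin, against 9.40 in AlbuMAX. FASN, the fatty acid synthase, had 13.23 and 13.08, against 12.52 in AlbuMAX. AlbuMAX thus lay below both arrays of the pair in these 2 genes, unlike in the actins. All 27 measured cytosolic ribosomal proteins and all 14 respiratory chain genes were also within 1.5-fold, with medians of -0.06 and -0.19.

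Most of the metallothioneins, small cysteine-rich proteins that bind zinc and copper, were lower in LPA + Albumin than in Albumin, and all were lower in Albumin than in E8. Of 7 measured genes of the metallothionein and zinc list 4 were at least 1.5-fold lower, 2 at least 2-fold and 0 higher, with a median of -0.86. Against the median of the 4 media without LPA or AlbuMAX, in place of Albumin alone, the list's median was -2.01. MT1G had 8.17 in LPA + Albumin and 9.54 in Albumin, with 11.51 in LPA, 11.37 in E8, 8.62 in AlbuMAX, 11.29 in CDL and 11.44 in hCDL (0.1x). The arrays fell into 2 levels, low with albumin or AlbuMAX and high without, and LPA + Albumin was the lowest of all.

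MT1H had 6.08 in LPA + Albumin and 7.46 in Albumin, MT1F 9.32 and 10.28, and MT1X 8.29 and 9.15. MT1E was at 8.06 in LPA + Albumin and 8.48 in Albumin, and MT2A at 7.22 and 7.10, so the direction was not shared by every member. In LPA minus E8 the differences were -0.15 for MT1H, 0.14 for MT1G, -0.11 for MT1F, -0.41 for MT1X, 0.74 for MT1E and 0.04 for MT2A. The difference in MT1G and MT1H thus had no counterpart of its size when LPA was added without albumin; whether the pairs differ beyond chance was not tested. MTF1, the zinc-sensing factor that drives these genes, differed by 0.04. Metallothionein genes are close copies, so their probes may catch more than 1 of them.

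**Figure D3:**
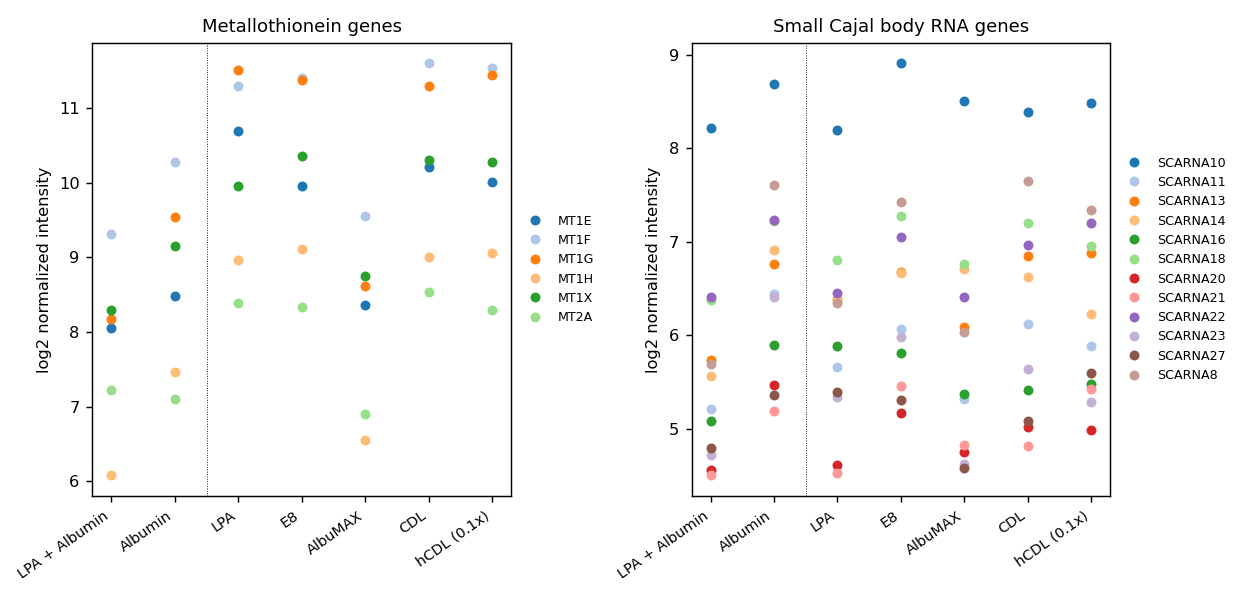
Levels (log2 normalized intensity) of the 6 measured metallothionein genes (left) and the 12 measured small Cajal body RNA genes (right) on the 7 arrays, 1 point per gene and array. MT1G stands at 8.17 in LPA + Albumin, 9.54 in Albumin and 11.37 in E8, and SCARNA8 at 5.69, 7.61 and 7.43.

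Small Cajal body RNAs, which guide the modification of spliceosomal RNAs in the nucleus, formed another low group, as the plot of metallothioneins and these RNAs by array shows. Of 12 measured genes whose symbol begins with SCARNA, 10 were at least 1.5-fold lower, 5 at least 2-fold and 0 higher, with a median of -0.87 and a range of -1.93 to -0.47. All 12 lay below the 4 media without LPA or AlbuMAX, against 35.5% of all genes. This group was formed after its members were seen among the lowest genes. SCARNA8 had 5.69 in LPA + Albumin and 7.61 in Albumin, with 6.34 in LPA, 7.43 in E8, 6.03 in AlbuMAX, 7.65 in CDL and 7.34 in hCDL (0.1x). SCARNA14 was 2.56-fold lower and SCARNA23 at least 2.17-fold. In LPA minus E8 the 12 genes had a median of -0.52, with 5 at least 1.5-fold lower. The 18 measured SNORA and SNORD genes, guides of the nucleolus, had a median of -0.09, with 1 higher and 2 lower by 1.5-fold. These RNAs are short and lack long poly(A) tails; how the labelling treated them on each array was not tested.

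The remaining genes among the 25 lowest were of several kinds. LINC01844, a long non-coding RNA, was at least 2.72-fold lower, at 4.56 in LPA + Albumin and 6.73 in Albumin. EBF2, a transcription factor of brown fat and neurons, was 3.46-fold lower, at 5.51 and 7.30, and NPTX1, neuronal pentraxin 1, 3.38-fold, at 6.23 and 7.99. GSN, gelsolin, which severs actin filaments, was at least 2.43-fold lower, at 4.97 in LPA + Albumin and 6.57 in Albumin. SELENOP, the plasma selenium carrier, was 2.86-fold lower, and FABP7, a fatty acid binding protein of neural progenitors, 2.62-fold. LINC01844 had 5.76 in E8, 5.33 in CDL and 5.67 in hCDL (0.1x), and FABP7 had 6.16, 6.19 and 6.25, with 6.85 in Albumin. From the lowest of the 4 media without LPA or AlbuMAX, LPA + Albumin differed by -0.77 in LINC01844, -0.89 in NPTX1 and -0.7 in FABP7. In EBF2 and GSN that gap was -1.04 and -1.59. ALDH1A1, which makes retinoic acid, was at least 1.67-fold lower, while ALDH1A3, a relative with the same reaction, was 2.79-fold higher, at 9.17 in LPA + Albumin and 7.69 in Albumin. SPTSSB, a subunit of serine palmitoyltransferase, was 2.97-fold lower, and its second probe differed by -0.87.

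**Figure D4:**
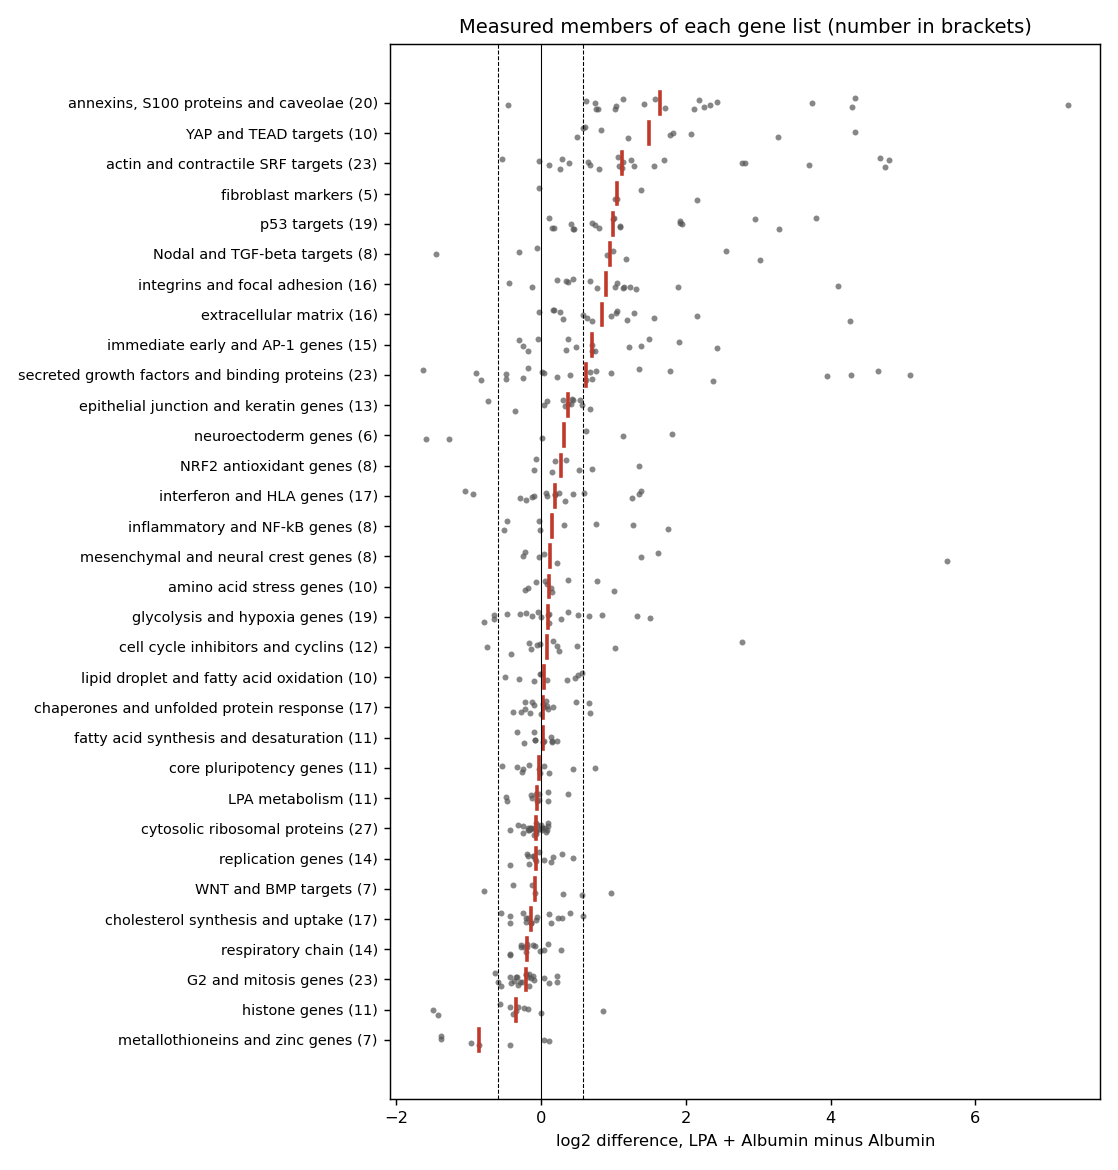
Differences, LPA + Albumin minus Albumin (horizontal axis, log2), of the measured genes of the lists shown, each with at least 5 of them, in order of the median (red bar); each point is a gene and the dashed lines mark 1.5-fold. The medians run from 1.64 for annexins, S100 proteins and caveolae to -0.86 for metallothioneins and zinc genes.

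The plot of lists with at least 5 measured genes places the stress lists near the median of all genes. Of 17 measured interferon and HLA genes 4 were at least 1.5-fold higher and 2 lower: ISG15, a ubiquitin-like protein, was 2.60-fold higher and HLA-B, a class I antigen, 2.39-fold higher, whereas IFI35 was 2.06-fold lower and BST2 1.91-fold. NQO1, a quinone reductase under NRF2, was 2.56-fold higher, and FTL, the light chain of ferritin, 1.63-fold, with 2 of 8 NRF2 genes past 1.5-fold. HSPB1 and BAG3, chaperones tied to the actin cytoskeleton, were 1.60-fold and 1.59-fold higher, the 2 of 17 measured chaperone genes past 1.5-fold. Glycolysis and hypoxia genes had 4 higher and 3 lower of 19, with ADM, adrenomedullin, 2.86-fold and PFKP, the platelet form of phosphofructokinase, 2.51-fold higher, and KDM3A, a hypoxia-induced histone demethylase, 1.72-fold lower. TXNIP, the thioredoxin-interacting protein that glucose induces, had 9.21 in LPA + Albumin and 8.91 in Albumin, against 7.23 in E8.

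The same genes were read in the pair without albumin, LPA minus E8, which shares no array with LPA + Albumin minus Albumin. Of the 290 genes at least 2-fold higher with albumin, 279 (96.2%) were higher in LPA minus E8, against 48.1% of all genes. By at least 1.5-fold 207 (71.4%) were higher there, against 5.96% of all genes. Past 2-fold in both were 116 genes, 40.0% of the 290 and 77.3% of the 150 of LPA minus E8. Of the 78 lower genes, 67 (85.9%) were lower in LPA minus E8, 27 (34.6%) by at least 1.5-fold, against 3.67% of all genes. The lower side was shared less at 2-fold, with 6 genes, 7.69% of the 78 and 13.3% of the 45.

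For the 25 highest genes, chosen in the pair with albumin, the differences in LPA minus E8 were 0.92 to 5.54, with a median of 2.92 against 4.28. Choosing genes in 1 pair favours that pair, so the other choice is given too. The 150 genes at least 2-fold higher in LPA minus E8 had a median of 1.33 in that pair and of 1.82 in LPA + Albumin minus Albumin, and 106 of them had the larger difference with albumin. The 45 lower genes of LPA minus E8 had medians of -1.13 there and -0.38 with albumin, and 6 of them had the larger difference with albumin. The difference between the pairs was not tested, since each rests on 2 arrays.

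GREM1, at 3.95 with albumin and 1.34 without, and COL7A1, at 3.46 and 0.92, were among the 25 highest genes that differed most between the pairs. On the lower side, FGF8 was at -1.63 with albumin and 0.07 without, whereas ALDH1A1 was at -1.55 and -1.38. Each of these 4 genes was not above background on 1 array of the pair with albumin, so their differences there are fitted values and not bounds. Past 1.5-fold in both pairs were 396 genes in the same direction and 15 in opposite directions.

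**Figure D5:**
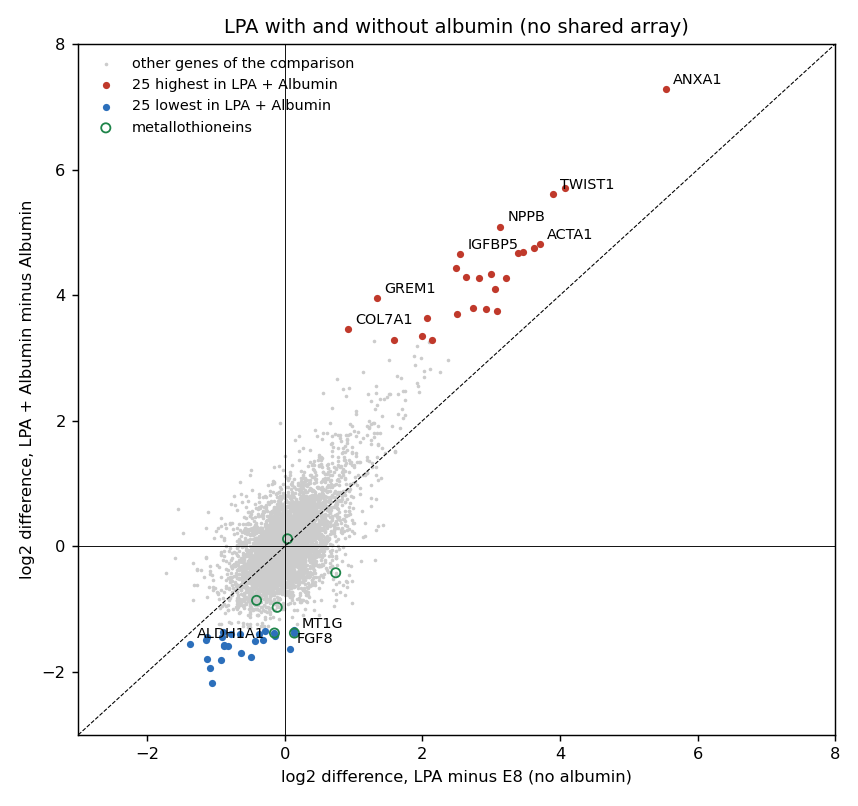
Difference with albumin, LPA + Albumin minus Albumin (vertical axis, log2), against the difference without it, LPA minus E8 (horizontal axis, log2), for the genes of the comparison; the dashed line marks equal differences. The 25 highest genes (red) all lie above the line, ANXA1 at 7.28 and 5.54, and the metallothioneins MT1G and MT1H (green rings) lie at -1.38 on the vertical axis and at 0.14 and -0.15 on the horizontal axis.

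The plot of the 2 pairs shows the 25 highest genes above the line of equal differences and the metallothioneins spread around zero on the axis of LPA minus E8.

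Markers of other cell types were read for the same pair, since several contractile and matrix genes are also known from muscle and fibroblasts. Of 8 smooth and cardiac muscle markers on the arrays, 2 were above background in LPA + Albumin and 0 in Albumin, MYH11 at 5.38 and 4.56 and MYOCD at 5.75 and 5.15, while MYH6, MYH7, TNNI1, TNNC1, NKX2-5 and LDB3 were above background on none of the 7 arrays. Of 9 fibroblast markers, 5 were above background in LPA + Albumin and 4 in Albumin, with summed normalized intensities of 3350 and 2990, and DCN, LUM, FAP and POSTN were above background on no array. THY1, at 11.37 and 11.40, carried most of that sum, while the other 4 (COL6A3, PDGFRB, LOX and S100A4) were each at least 2-fold higher in LPA + Albumin, and the median difference of the 5 was 1.05. Trophoblast markers had 2 of 10 above background on either array, with sums of 248 and 195, and GATA2, GATA3, KRT7, HAND1, CDX2 and PSG3 on none. Endothelial markers had 2 of 5 in LPA + Albumin and 1 in Albumin, with sums of 231 and 216, and neuron markers 2 of 3 on both, with sums of 6490 and 4290, from TUBB3 and INA. Their part in the results above was not tested.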

How the data were processed

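RNA of 7 cultures of H1 cells, 1 per medium, was labelled as cRNA and hybridised to Illumina bead arrays, per the labels' protocols. The deposited table of unnormalized values holds, per the file headers, 1 intensity and 1 detection p-value for each of 33866 probes on each array (software: not given in the sources used here). A deposited matrix of the submitters' processed intensity values, whose columns had rank correlation 1 with their own arrays, at most 0.869 with others, and medians of 112.4 to 112.5, served as an alternative. It is linear, not centred by gene, and of known direction, and how it was normalized is not stated.

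From the deposited intensity, log2 levels were computed over all 7 arrays by the neqc function (limma 3.58.1, R 4.3.3), which applies normexp background correction, here with an offset of 16 and with the negative controls recovered from detection p-values, and then quantile normalization. Probes were named through the platform annotation given with the data (19221 with 1 symbol, 3 with several, 14642 unnamed here; 19194 matched by Entrez identifier, 0 symbols changed). A gene was represented by its probe of highest mean among those above background (detection p-value under 0.01) on at least 1 array, which gave 7982 genes, 2036 of them with several probes. The fold thresholds of 1.5 and 2 are sizes, not tests, and precision is limited by having 1 array per medium. The normalization step was tested on simulated data.

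1 gene list is not reported here. The comparison, the 43 gene lists and the rule for named genes were chosen with earlier results of these data known. That rule takes the 25 highest and 25 lowest genes, the 6 most different members of each list and further ones past 1.5-fold, the pluripotency factors, LPA receptors and metallothioneins. Alternatives covered background correction, normalization, the submitters' values, probe averaging, the filter on dim probes and, added after seeing the data, other reference media.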

Additional observations from a re-analysis of the deposited data

How the results depend on the processing

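Counts past a fold depended on how background was handled. Without background correction 133 genes were at least 2-fold higher and 11 lower (347 and 117 at 1.5-fold), with an offset of 50 these were 189 and 25 (469 and 213), and on the submitters' values 132 and 11 (343 and 119). Requiring both arrays above background left 44 lower genes at 2-fold and 365 at 1.5-fold, since genes with a dim side drop out by construction. Cyclic loess, median centring, the 2 arrays normalized alone, probe averages and other dim-probe filters gave 274 to 323 higher and 67 to 88 lower genes past 2-fold. With the median of the 4 media without LPA or AlbuMAX as reference there were 274 and 60, and with E8 296 and 94. Of the 192 named genes past 1.5-fold, 191 kept their sign in all 12 settings and 129 stayed past 1.5-fold in each. The exception in sign was IRF1, at -0.08 against E8. Among list medians that shifted by at least 1.5-fold, the sign changed for endothelial markers (-0.42 where both arrays had to be above background, leaving 1 gene) and for mesendoderm and endoderm factors (0.08 against E8). It also changed for retinoid genes (-0.03, and 1.48 where both arrays had to be above background) and for trophoblast and amnion markers (0.53, and -0.06 with no filter on dim probes). Changes of sign in smaller shifts are not listed here. The metallothionein median was -2.07 against E8 and -0.39 with no filter, which adds dim genes; the cause was not tested. No paired analysis was possible because each medium has 1 array. Genes not above background on 1 side have only bounds, which hold for the main normalization and not for every setting. The lowest differences over the 12 settings were 3.47 for TWIST1, 3.0 for NPPB and 2.47 for MYOF. In the main setting these genes had 5.61, 5.09 and 4.34.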
